A study of Homo sapiens with 6 samples.

Results

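Enzymes that activate, desaturate, elongate, esterify and hydrolyse lipids were examined in RNA-seq libraries of Huh7 cells in which ABL1 was knocked down. Members were the table rows whose gene symbol began with a stem of these enzyme families: ABHD, ACS, ACOT, ACAD, ACOX, ELOVL, FADS, PLIN, AGPAT, GPAT, LPIN, LPCAT, PLA2G, PNPLA, DGAT, MBOAT, PLD, PLPP, CERS, SMPD, SPTLC, HSD17B, HSD3B and the lipases named LIP. The stems matched 103 of 10191 rows. After 7 rows of 6 genes were set aside by the same rule, 96 rows of 92 genes remained. Of these, 89 rows of 86 genes were lipid enzymes or lipid droplet proteins and are described here as the lipid enzyme rows. Another 4 rows belonged to 3 GPATCH genes, which share only the spelling of the stem and encode RNA-binding proteins with a G-patch domain. The last 3 rows, AGPAT4-IT1, HSD17B7P2 and HSD3BP4, were transcripts of non-coding genes or pseudogenes. The row of CERS5, a non-coding transcript of an enzyme gene, was kept among the lipid enzyme rows and was not tested. Members were chosen by name, with earlier results of these data known.

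The ABL1 knockdown group was 3 libraries of Huh7 cells carrying an shRNA against ABL1, a non-receptor tyrosine kinase, and the scrambled group was 3 libraries of Huh7 cells carrying a scrambled shRNA. Huh7 is an established human hepatocellular carcinoma line, so each group is a treatment of the same line and not of normal hepatocytes. Both groups were grown in DMEM and collected 1 week after puromycin selection. The labels do not say whether the 3 libraries of a group came from separate cultures, how many hairpins were used, or whether the selected cells were pools or clones. Each p-value therefore speaks of the spread among the libraries at hand, and that spread could be technical alone.

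Fatty acids become usable in the cell only after an acyl-CoA synthetase has joined them to coenzyme A, and thioesterases undo that step. Desaturases and elongases then reshape the chain, and acyltransferases attach it to glycerol, giving phosphatidic acid, phospholipids and triglyceride, the last of which is stored in droplets coated by perilipins. Lipases, phospholipases and many α/β-hydrolase domain (ABHD) proteins release the acyl chains again. In liver these reactions feed secretion of lipoproteins, storage of fat and oxidation of fatty acids.

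Each row of the table is a single RefSeq transcript, with 1 value per library. Whole reads were recovered from the deposited values. Summed over the rows of the table, they came to 7952645, 6651413 and 7483809 in the knockdown group and 10487862, 7713451 and 9137608 in the scrambled group. These sums need not be all reads of a library, and scaling to equal totals below refers to them. Normalized counts are those reads on the authors' own scale. Of the 2 ABL1 transcripts in the table, NM_007313 had 14, 9 and 9 reads in knockdown libraries and 88, 64 and 76 in scrambled libraries (log2 change -2.62, adjusted p = 4.11e-06). The other, NM_005157, had 18, 17 and 24 reads in knockdown libraries and 11, 6 and 11 in scrambled libraries, and rose (log2 change 1.15, adjusted p = 0.0180). The 2 groups separated on the first principal component, which took 69.9% of the variance. In bulk RNA, fewer cells of a kind and less RNA per cell cannot be told apart.

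Promoters of 4 genes are printed because their genes carry contrasting results below: LIPH rose most, FADS3 was among the largest falls, and PNPLA2 and its coactivator ABHD5 changed in opposite directions. Each window runs from 250 bases before to 50 bases after the start used for that gene. Windows were taken from RefSeq on build GRCh38.p14, in the direction of transcription, 5′ to 3′. For LIPH, ABHD5 and PNPLA2 that start is the first base of the gene span. The FADS3 start lies inside the span, which begins at chr11:61892224 on the minus strand, so its window lies within the gene. Capitals mark matches to TATAAA, the TATA box, or to CCAAT, a common promoter element, read on either strand (ATTGG on the other). CACGTG, the E-box, and TGACTCA, the AP-1 element, were searched in the same way. The LIPH window lies at chr3:185552539-185552838 on the minus strand, FADS3 at chr11:61891496-61891795 on the minus strand, ABHD5 at chr3:43690620-43690919 on the plus strand and PNPLA2 at chr11:818664-818963 on the plus strand.
LIPH: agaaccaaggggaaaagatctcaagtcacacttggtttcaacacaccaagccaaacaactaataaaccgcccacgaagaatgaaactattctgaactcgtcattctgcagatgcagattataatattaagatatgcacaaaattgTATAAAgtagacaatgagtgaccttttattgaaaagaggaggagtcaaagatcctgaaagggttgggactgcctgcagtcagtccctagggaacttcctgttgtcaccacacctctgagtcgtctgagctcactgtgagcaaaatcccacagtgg
FADS3: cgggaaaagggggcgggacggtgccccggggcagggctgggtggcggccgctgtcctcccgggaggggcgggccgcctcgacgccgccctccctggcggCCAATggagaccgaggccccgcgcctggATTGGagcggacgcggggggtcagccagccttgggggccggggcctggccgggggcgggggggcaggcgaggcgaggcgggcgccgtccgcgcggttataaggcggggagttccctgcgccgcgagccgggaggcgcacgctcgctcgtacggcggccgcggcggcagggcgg
ABHD5: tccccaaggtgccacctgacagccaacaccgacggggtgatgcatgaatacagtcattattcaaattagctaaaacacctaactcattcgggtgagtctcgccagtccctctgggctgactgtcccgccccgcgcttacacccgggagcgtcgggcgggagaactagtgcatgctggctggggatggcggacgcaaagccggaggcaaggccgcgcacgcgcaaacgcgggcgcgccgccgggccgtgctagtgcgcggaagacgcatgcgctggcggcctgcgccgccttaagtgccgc
PNPLA2: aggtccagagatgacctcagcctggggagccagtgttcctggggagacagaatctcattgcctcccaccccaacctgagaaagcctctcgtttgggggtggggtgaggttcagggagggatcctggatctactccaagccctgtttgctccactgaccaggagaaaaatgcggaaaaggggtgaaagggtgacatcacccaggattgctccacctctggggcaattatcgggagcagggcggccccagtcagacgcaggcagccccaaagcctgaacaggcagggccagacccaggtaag

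The LIPH window held a TATAAA whose first base lies 105 bases before the start, and its GC content was 43.0%. GC made up 81.0% of the FADS3 window. It held a CCAAT 151 bases and an ATTGG 123 bases before the start used, which lies inside the gene span. Neither the ABHD5 window (65.0% GC) nor the PNPLA2 window (59.3% GC) held a match to any of the 4 motifs, and no matches overlapped in these windows. Promoters were at hand for 52 tested lipid enzyme genes. CCAAT was found in 7 of 16 genes that rose, 3 of 10 that fell and 13 of 26 that did not pass the test, against 35.7% of all 27305 promoters in the RefSeq table and 37.1% of those of tested genes. TATAAA was found in 1, 0 and 3 promoters of these groups (11.95% of all promoters), CACGTG in 1, 1 and 2 (7.43%) and TGACTCA in 0, 0 and 2 (4.92%). Among promoters of tested genes the shares were 6.61% for TATAAA, 10.5% for CACGTG and 3.08% for TGACTCA. These matches are a description of the letters only.

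Of the 89 lipid enzyme rows, 75 had a mean normalized count of at least 10 and were tested together with all other rows of the table. The test was limma on log2(normalized count + 1), with Benjamini-Hochberg adjustment over 8600 rows and a threshold of 0.05. At that threshold 21 lipid enzyme rows rose (28.0%), where 24.5% of all tested rows rose, and 15 fell (20.0%), where 27.4% of all tested rows fell. In either direction 36 of 75 were called (48.0%), where 51.9% of all tested rows were. The share called was thus close to the background of the table. Values of the groups did not overlap for 42 rows (56.0%), beside 58.9% of all tested rows, and 10 rows were called with at least a 2-fold change (13.3%), beside 16.9%. The median log2 change of lipid enzyme rows was 0.10, with quartiles at -0.30 and 0.50, and that of all tested rows was 0.0018, with quartiles at -0.44 and 0.43. Scaling of the libraries to equal totals moved the median of all tested rows to 0.18 and the lipid enzyme calls to 29 rises and 11 falls, so that rises made up 72.5% of calls in place of 58.3%. Over all tested rows the same scaling moved the share of rises among calls alike, to 63.8% in place of 47.2%.

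Errors were larger for transcripts of low level. Of 14 tested rows with a mean normalized count under 30, 1 was called, and the median standard error (SE) of their log2 changes was 0.42. Among 21 rows from 30 to 300, 12 were called, 7 of them rises, with a median SE of 0.19. From 300 upwards, 23 of 40 were called, 13 of them rises, with a median SE of 0.096. Over all levels 51.9% of all tested rows of the table were called. The counts per level were not set beside those of other rows at the same level. Among the rows found by the rule, tested or not, those of genes with 1 RefSeq transcript had a median level of 294 normalized counts. Those of genes with 5 or more had 13.2. Among tested lipid enzyme rows the medians were 323 for genes with 1 RefSeq transcript and 316 for genes with several. A low row may stand for a minor transcript of a gene, not for the whole gene, which was not tested.

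**Figure D1:**
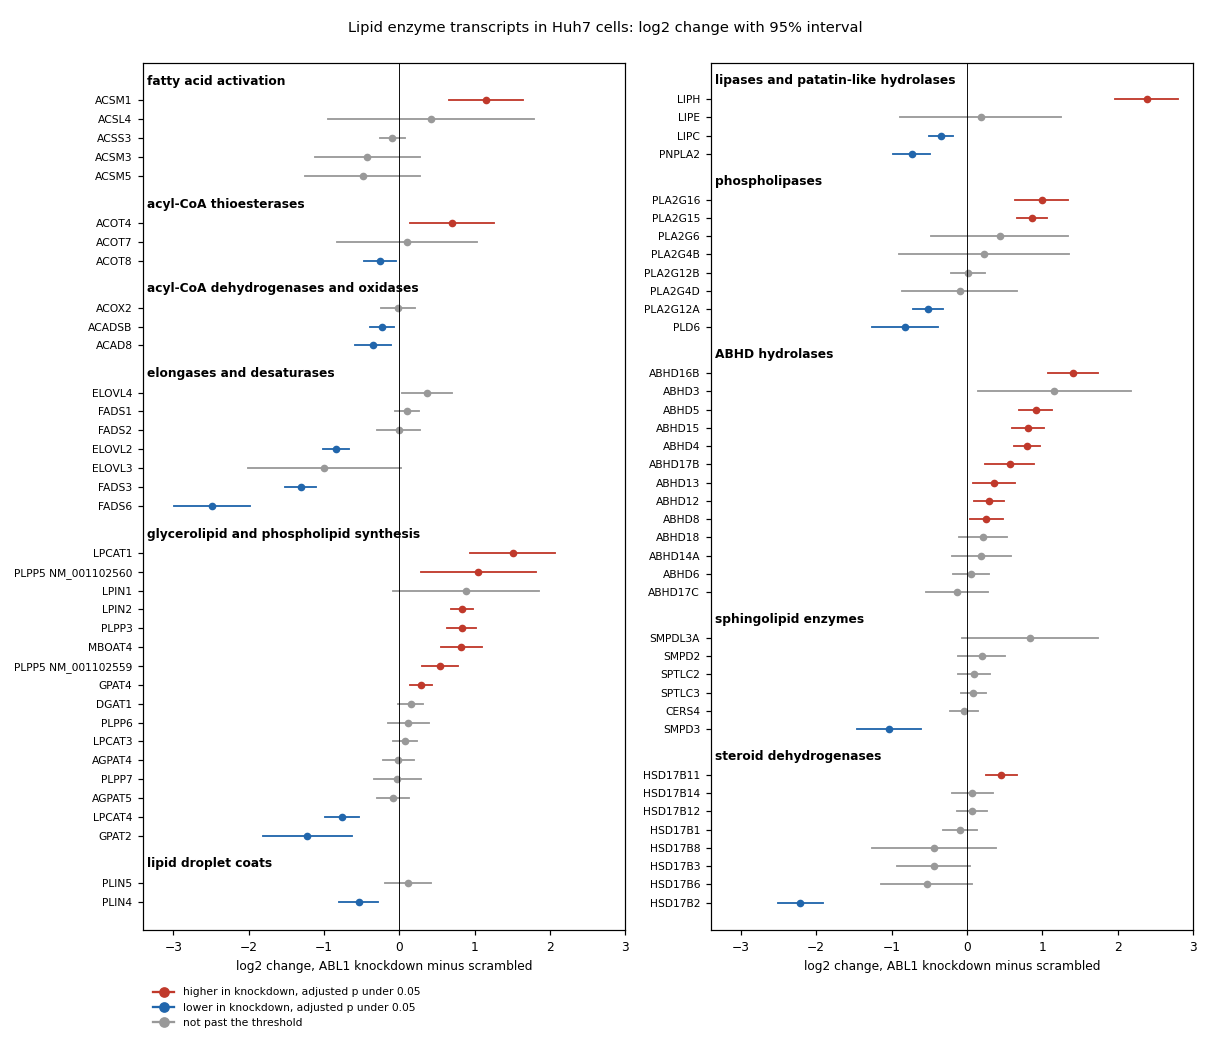
The log2 change of each tested lipid enzyme row, ABL1 knockdown minus scrambled, with its 95% interval (x axis), is shown by role of the enzyme; red marks the 21 rows that rose, blue the 15 that fell and grey the 39 that did not pass the test. LIPH stands at 2.38 and FADS6 at -2.49, and no ABHD row is blue.

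Acyl-CoA synthetases, which activate fatty acids, had 5 tested rows, of which 1 rose and 4 did not pass the test. Beside this, 24.5% of all tested rows rose and 27.4% fell. ACSM1, a mitochondrial medium-chain acyl-CoA synthetase, had 107, 72.3 and 77.4 normalized counts in knockdown libraries and 42.5, 40.3 and 30.02 in scrambled libraries. Every knockdown library lay above every scrambled library. Its means were 85.4 ± 18.5 in knockdown and 37.6 ± 6.68 in scrambled libraries (SD, n = 3 each, as for all means below), a log2 change of 1.16 (SE 0.23, adjusted p = 9.58e-04). The rows of ACSL4, ACSS3, ACSM3 and ACSM5 had log2 changes from -0.49 to 0.42. ACSS3, a short-chain acyl-CoA synthetase of mitochondria, was well measured, with means of 1819.7 ± 96.8 in knockdown and 1938 ± 72.0 in scrambled libraries and a 95% interval of the log2 change from -0.25 to 0.07.

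Thioesterases, which free fatty acids from coenzyme A, had 3 tested rows: 1 rose, 1 fell and ACOT7 did not pass the test. ACOT4, a peroxisomal enzyme for dicarboxylic acyl-CoAs, had 48.9, 59.9 and 75.3 normalized counts in knockdown libraries and 34.2, 50.4 and 29.1 in scrambled libraries. It was the 1 called row of the 36 whose groups overlapped, since scrambled replicate 2 lay above knockdown replicate 1 (log2 change 0.70, SE 0.26, adjusted p = 0.0380). Reads from close relatives of ACOT4 in the same gene cluster could have been counted here, which was not tested. ACOT8, a peroxisomal thioesterase, had 429, 411 and 487 normalized counts in knockdown libraries and 537, 499.9 and 543 in scrambled libraries. Its groups lay apart, with a small log2 change of -0.25 (SE 0.10, adjusted p = 0.0453), and 20.2% of its exon bases lie opposite SNX21. Neither call was kept under every omission of a single library: the adjusted p reached 0.143 for ACOT4 and 0.135 for ACOT8. Quantile normalization ended both calls (adjusted p = 0.0621 for ACOT4 and 0.224 for ACOT8).

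Among acyl-CoA dehydrogenases and oxidases, 2 of 3 tested rows fell, where 27.4% of all tested rows fell. Both are rows of enzymes of branched-chain amino acid breakdown. ACAD8, the isobutyryl-CoA dehydrogenase of valine breakdown, had 257, 267 and 312 normalized counts in knockdown libraries and 358, 359 and 346 in scrambled libraries. The groups did not overlap (log2 change -0.35, SE 0.11, adjusted p = 0.0169). ACADSB, which acts on isoleucine-derived acyl-CoA, had 2612, 2804 and 2476 normalized counts in knockdown libraries and 2941, 3042 and 3267 in scrambled libraries. Its groups also lay apart, by a log2 change of -0.23 (SE 0.08, adjusted p = 0.0224). ACOX2, which shortens branched side chains in bile acid synthesis, had means of 587 ± 30.5 in knockdown and 598 ± 70.4 in scrambled libraries (95% interval -0.24 to 0.20). With equal totals neither ACAD8 (log2 change -0.18, adjusted p = 0.187) nor ACADSB (-0.06, adjusted p = 0.572) passed the threshold.

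The elongases and desaturases held the largest fall of the lipid enzymes. Of 7 tested rows 3 fell and none rose, with a median log2 change of -0.84, while with equal totals 2 rose and 3 fell. Beside these counts, 24.5% of all tested rows rose and 27.4% fell, and with equal totals 34.6% rose and 19.6% fell. FADS6, a member of the fatty acid desaturase family by sequence, had 68.5, 35.0 and 35.1 normalized counts in knockdown libraries and 256, 260.0 and 236 in scrambled libraries. Knockdown replicate 1 was higher than the other knockdown libraries, and all of them lay far below the scrambled group. The means of 46.2 ± 19.3 in knockdown and 250.5 ± 13.1 in scrambled libraries gave a log2 change of -2.49 (SE 0.23, adjusted p = 2.12e-06), and FADS6 was 5.60-fold lower in knockdown libraries on that scale.

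FADS3, a desaturase that acts on sphingoid bases, had 435, 366 and 415 normalized counts in knockdown libraries and 1065, 982 and 965 in scrambled libraries. The groups were well apart and tight, with means of 405 ± 35.5 in knockdown and 1004 ± 53.2 in scrambled libraries (log2 change -1.31, SE 0.09, adjusted p = 2.67e-07). ELOVL2, an elongase of long polyunsaturated fatty acids, also fell, with means of 723 ± 37.7 in knockdown and 1291 ± 48.5 in scrambled libraries (log2 change -0.84, adjusted p = 2.79e-06). FADS3 lies beside FADS1 and FADS2, the Δ5 and Δ6 desaturases of polyunsaturated fatty acid synthesis, in 92598 bases of chromosome 11 (chr11:61799627-61892224). FADS1 had 12263, 11701 and 11161 normalized counts in knockdown libraries and 10614, 11592 and 10455 in scrambled libraries, and its groups overlapped. Its log2 change was 0.11 (95% interval -0.05 to 0.26, adjusted p = 0.243), and that of FADS2 was -0.01 (95% interval -0.29 to 0.27). With equal totals FADS1 passed the threshold as a rise (log2 change 0.28, adjusted p = 0.00445), as it did with quantile normalization (0.42, adjusted p = 2.47e-04). The changes of FADS3 and of its neighbours were not tested against each other.

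ELOVL4, the elongase of very long chains, had a log2 change of 0.37 and missed the threshold (adjusted p = 0.0595), while it passed with equal totals (0.54, adjusted p = 0.0115). ELOVL3 had only 7, 8 and 6 reads in knockdown libraries and 11, 27 and 14 in scrambled libraries. These groups did not overlap, but the log2 change of -0.996 was not called (adjusted p = 0.0931).

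**Figure D2:**
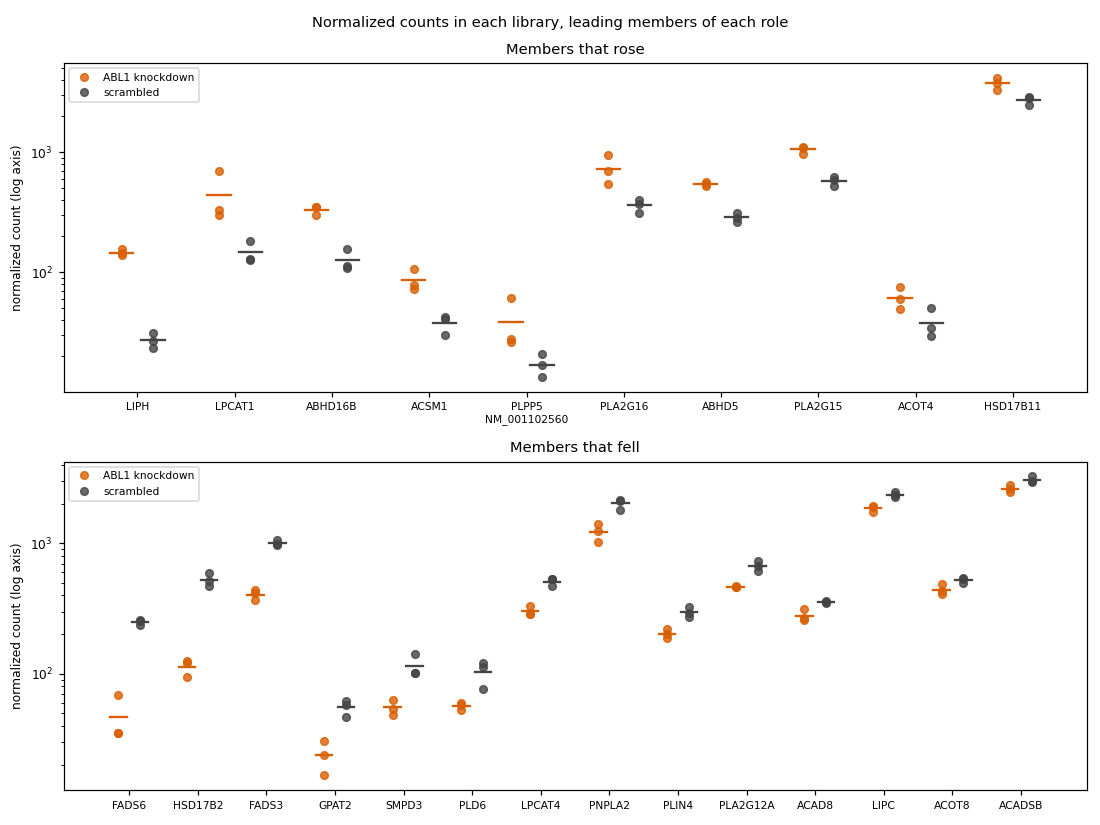
Normalized counts on a log axis are shown for the 24 members with the largest rises and falls of each role, with 1 point per library, ABL1 knockdown (orange) to the left of scrambled (grey), and a bar at the mean of 3 libraries. The groups overlap for ACOT4 and lie apart for every other member drawn, and LPCAT1 has a knockdown library at 698 above the others at 298 and 330.1.

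Glycerolipid and phospholipid synthesis was the role with the most tested rows: 7 of 16 rose, 2 fell and 7 did not pass the test, with a median log2 change of 0.22. Of all tested rows 24.5% rose and 27.4% fell. The rises of this role include both tested rows of PLPP5 and the row of MBOAT4, which makes no glycerolipid. LPCAT1, which re-acylates lysophosphatidylcholine and is known for making the saturated phosphatidylcholine of lung surfactant, had 698, 298 and 330.1 normalized counts in knockdown libraries and 182, 127 and 129 in scrambled libraries. Knockdown replicate 1 stood above the rest, but even the lowest knockdown library exceeded the highest scrambled library. The means were 442 ± 222 in knockdown and 146 ± 31.3 in scrambled libraries (log2 change 1.51, SE 0.26, adjusted p = 3.85e-04), and the log2 change was 1.12 without that library.

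LPCAT4, a related lysophospholipid acyltransferase, moved the other way. It had 331, 286 and 288 normalized counts in knockdown libraries and 531, 529 and 470.1 in scrambled libraries, with no overlap (log2 change -0.76, SE 0.10, adjusted p = 6.34e-05). LPCAT3, which places polyunsaturated chains on lysophospholipids, had means of 1652 ± 66.2 in knockdown and 1566 ± 44.5 in scrambled libraries and a log2 change of 0.08 (95% interval -0.08 to 0.23). Within this family of acyltransferases a rise, a fall and an interval that includes 0 thus stood side by side. LPCAT3 shares 66.4% of its exon bases with EMG1 on the opposite strand, and the strand setting of the counting was not given in the sources used here.

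Glycerol-3-phosphate acyltransferases start glycerolipid synthesis. GPAT2, the mitochondrial form known chiefly from testis, had 16.6, 30.5 and 23.7 normalized counts in knockdown libraries and 61.7, 57.2 and 46.9 in scrambled libraries. The groups lay apart (log2 change -1.22, SE 0.27, adjusted p = 0.00230), at a low level, and reads from its near-identical copies on the same chromosome could have been counted here. GPAT4, the form of the endoplasmic reticulum, was far more abundant and rose slightly, with means of 3158 ± 22.2 in knockdown and 2590.4 ± 121 in scrambled libraries (log2 change 0.29, adjusted p = 0.00376).

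Phosphatidic acid is dephosphorylated to diacylglycerol by lipins inside the cell, while phospholipid phosphatases (PLPP) act on lipid phosphates at membranes. LPIN2, the main lipin of liver, had means of 5386 ± 142 in knockdown and 3025 ± 114 in scrambled libraries (log2 change 0.83, adjusted p = 7.03e-07). PLPP3, which degrades extracellular lysophosphatidic acid, had means of 1669.8 ± 54.9 in knockdown and 945 ± 96.0 in scrambled libraries (log2 change 0.83, adjusted p = 6.83e-06). PLPP3 shares 17.5% of its exon bases with the annotated transcript AC119674.2 on the same strand. The LPIN1 row had 12, 9 and 18 reads in knockdown libraries and 6, 9 and 6 in scrambled libraries, and its log2 change of 0.89 was not called (adjusted p = 0.114).

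PLPP5, a phospholipid phosphatase, was the gene with the most rows. Its main transcript, NM_001102559, rose, with means of 682 ± 43.7 in knockdown and 471 ± 60.7 in scrambled libraries (log2 change 0.54, adjusted p = 0.00109). The minor transcript NM_001102560 had 26.4, 61.0 and 27.9 normalized counts in knockdown libraries and 16.7, 13.4 and 20.6 in scrambled libraries. Its groups did not overlap (log2 change 1.05, SE 0.35, adjusted p = 0.0247), but the rise rested on knockdown replicate 2, without which the log2 change was 0.67 (adjusted p = 0.138). NM_032483 had 5, 17 and 8 reads in knockdown libraries and 12, 6 and 6 in scrambled libraries and was not tested. PLPP6 and PLPP7 did not pass the test, at log2 changes of 0.12 and -0.03.

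MBOAT4 rose as well, with means of 391 ± 19.2 in knockdown and 222 ± 30.7 in scrambled libraries (log2 change 0.82, adjusted p = 1.18e-04). It acylates the peptide hormone ghrelin and makes no glycerolipid, and 21.4% of its exon bases lie opposite LEPROTL1. DGAT1, which adds the last acyl chain of triglyceride, was abundant and did not pass the test: its means were 4342 ± 269 in knockdown and 3916 ± 231 in scrambled libraries (log2 change 0.15, 95% interval -0.02 to 0.31, adjusted p = 0.118). It passed as a rise with equal totals (0.32, adjusted p = 0.00224) and with quantile normalization (0.30, adjusted p = 0.00258). AGPAT4 and AGPAT5, which make phosphatidic acid, had log2 changes of -0.01 and -0.09.

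The perilipins coat lipid droplets and control the access of lipases. PLIN4 had 220.1, 201 and 187 normalized counts in knockdown libraries and 290.1, 324 and 273 in scrambled libraries. All knockdown libraries lay below all scrambled libraries (log2 change -0.54, SE 0.12, adjusted p = 0.00221). PLIN5, the perilipin of oxidative tissues, had means of 195 ± 8.44 in knockdown and 181 ± 31.0 in scrambled libraries and a 95% interval of the log2 change from -0.19 to 0.43.

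The lipases held the largest rise. LIPH, a membrane-associated phospholipase A1 that cleaves phosphatidic acid to the signalling lipid lysophosphatidic acid, had 143, 155 and 138 normalized counts in knockdown libraries and 26.7, 31.4 and 23.5 in scrambled libraries. The groups lay far apart and each was tight. The means of 145 ± 8.58 in knockdown and 27.2 ± 3.99 in scrambled libraries gave a log2 change of 2.38 (SE 0.19, adjusted p = 6.60e-07), a 5.22-fold rise on that scale, and leaving out any library kept it between 2.29 and 2.49. LIPH spans chr3:185506262-185552588, and its promoter is printed above.

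PNPLA2, the adipose triglyceride lipase that begins the breakdown of stored triglyceride, had 1255, 1022 and 1403 normalized counts in knockdown libraries and 2153, 1803 and 2128 in scrambled libraries. All knockdown libraries were lower (log2 change -0.73, SE 0.11, adjusted p = 1.53e-04), and 13.7% of its exon bases lie opposite another annotated transcript. LIPC, the hepatic lipase that hepatocytes secrete to act on circulating lipoproteins, had 1936, 1902 and 1736 normalized counts in knockdown libraries and 2465, 2341 and 2275 in scrambled libraries. Its groups lay apart as well (log2 change -0.35, SE 0.07, adjusted p = 0.00189), but with equal totals it missed the threshold (-0.17, adjusted p = 0.0642). LIPE, the hormone-sensitive lipase, was near the limit of the test, with means of 14.2 ± 10.95 in knockdown and 10.6 ± 2.49 in scrambled libraries.

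Phospholipases had 8 tested rows, of which 2 rose (25%) and 2 fell (25%). These shares were close to those of all tested rows, 24.5% for rises and 27.4% for falls. PLA2G16, now called PLAAT3, a phospholipase A and acyltransferase of fat tissue, had 544, 699.6 and 941 normalized counts in knockdown libraries and 369, 312 and 396 in scrambled libraries. Knockdown libraries spread widely but stayed above the scrambled libraries (log2 change 0.99, SE 0.17, adjusted p = 2.91e-04). PLA2G15, the lysosomal phospholipase A2, had 1089.7, 964 and 1098 normalized counts in knockdown libraries and 615, 587 and 524 in scrambled libraries. Its groups were far apart for their spread (log2 change 0.87, SE 0.09, adjusted p = 7.30e-06).

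PLD6, a phospholipase D of the mitochondrial surface that also acts in piRNA production, fell. It had 52.8, 57.6 and 59.8 normalized counts in knockdown libraries and 112, 76.2 and 121 in scrambled libraries, with no overlap (log2 change -0.82, SE 0.20, adjusted p = 0.00455). PLD6 shares 17.6% of its exon bases with the annotated transcript AC055811.2 on the same strand. PLA2G12A, a secreted phospholipase A2, had 466, 462 and 472 normalized counts in knockdown libraries and 666, 615 and 729 in scrambled libraries. The knockdown values were nearly equal to each other and below all scrambled values (log2 change -0.52, SE 0.09, adjusted p = 4.86e-04). PLA2G12A shares 15.7% of its exon bases with the annotated transcript AC126283.2 on the same strand. Its relative PLA2G12B, a protein without catalytic activity that is expressed in liver, had means of 692 ± 67.1 in knockdown and 687 ± 70.5 in scrambled libraries (95% interval -0.21 to 0.24). PLA2G6, PLA2G4B and PLA2G4D had mean normalized counts of 8.91 to 17.5 in either group and log2 changes from -0.10 to 0.44. All exon bases of PLA2G4B (100%) belong to the read-through gene JMJD7-PLA2G4B too, so its reads cannot be assigned to it alone.

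The ABHD hydrolases were the role with the most rises. Of 13 tested rows 8 rose (61.5%), none fell and 5 did not pass the test, with a median log2 change of 0.36. The table as a whole had 24.5% of rows rising and 27.4% falling. The count was 10 rises with equal totals (where 34.6% of all tested rows rose), 8 with quantile normalization (26.7%) and 9 with median of ratios (24.9%), and 5 to 8 when a single library was left out, with no fall under any of these. The lowest count, 5, came without knockdown replicate 3. Because members were chosen with earlier results known, this count has no test of its own.

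ABHD16B, a gene with a single exon whose substrate is not established, had 345, 298 and 351 normalized counts in knockdown libraries and 113, 108 and 157 in scrambled libraries. All knockdown libraries were higher (log2 change 1.41, SE 0.15, adjusted p = 8.60e-06). All of its exon bases (100%) are also covered, on the opposite strand, by the annotated transcript AL118506.1, so without a known strand setting the reads cannot be assigned to ABHD16B alone. ABHD5, the coactivator of PNPLA2, had 558, 523 and 536 normalized counts in knockdown libraries and 263, 312 and 283 in scrambled libraries. The groups were tight and apart, with means of 539 ± 17.3 in knockdown and 286 ± 24.6 in scrambled libraries (log2 change 0.92, SE 0.10, adjusted p = 9.17e-06).

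ABHD15, which stabilises the phosphodiesterase PDE3B in fat cells of mice, had means of 969.7 ± 44.7 in knockdown and 554 ± 60.1 in scrambled libraries (log2 change 0.81, adjusted p = 1.89e-05), and part of its exon sequence lies opposite TP53I13. ABHD4, a hydrolase of N-acyl phosphatidylethanolamines, had means of 1558 ± 88.5 in knockdown and 893 ± 41.9 in scrambled libraries (log2 change 0.80, adjusted p = 3.91e-06). ABHD17B, which removes palmitate from proteins, had a log2 change of 0.57 (adjusted p = 0.00709).

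The other rises were small. ABHD13 had a log2 change of 0.36 (adjusted p = 0.0318), ABHD12, a hydrolase of lysophosphatidylserine, had 0.30 for NM_001042472 (adjusted p = 0.0153), and ABHD8 had 0.26 (adjusted p = 0.0458). None of these calls was kept under every omission of a single library: the adjusted p reached 0.110 for ABHD13, 0.0662 for ABHD12 and 0.172 for ABHD8. The second ABHD12 row, NM_015600, had 9, 11 and 18 reads in knockdown libraries and 9, 5 and 1 in scrambled libraries and was not tested. ABHD3, which cleaves phosphatidylcholines with short or oxidised chains, had 11, 15 and 32 reads in knockdown libraries and 11, 9 and 5 in scrambled libraries. Its log2 change of 1.16 missed the threshold (adjusted p = 0.0541) and passed it with equal totals (adjusted p = 0.0304). ABHD6, the monoacylglycerol lipase of several tissues, had a log2 change of 0.05 (95% interval -0.18 to 0.29), and ABHD18, ABHD14A and ABHD17C lay between -0.13 and 0.21. ABHD14A shares 66.0% of its exon bases with ABHD14A-ACY1 on the same strand.

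**Figure D3:**
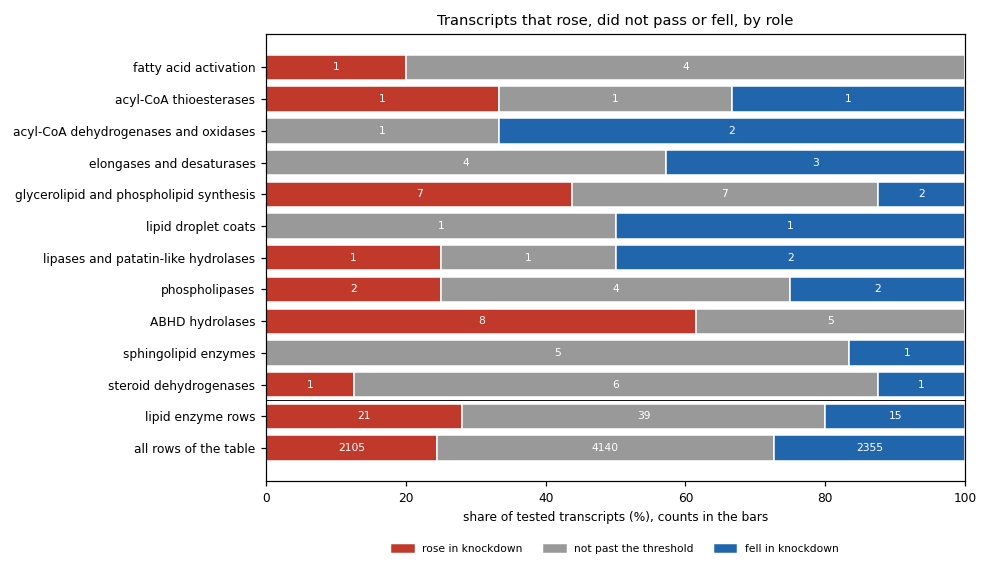
Each bar shows the share of tested rows (x axis, in percent) that rose, did not pass the test or fell in ABL1 knockdown libraries, by role, with counts in the bars and the lipid enzyme rows and all 8600 tested rows of the table at the foot. ABHD hydrolases have 8 rises and no fall of 13, and elongases and desaturases have 3 falls and no rise of 7.

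Of 6 tested sphingolipid enzymes 1 fell, where 27.4% of all tested rows fell. SMPD3, the neutral sphingomyelinase that makes ceramide from sphingomyelin, had 53.8, 48.6 and 62.9 normalized counts in knockdown libraries and 101, 102 and 142 in scrambled libraries. The groups did not overlap (log2 change -1.04, SE 0.19, adjusted p = 7.08e-04). The subunits SPTLC2 and SPTLC3 of serine palmitoyltransferase, which begins sphingolipid synthesis, had log2 changes of 0.10 and 0.08, and CERS4, a ceramide synthase, had -0.04 (95% interval -0.22 to 0.14). With equal totals SPTLC2 (0.27, adjusted p = 0.0351) and SPTLC3 (0.26, adjusted p = 0.0157) passed the threshold as rises. SMPD2 and SMPDL3A did not pass the test, at log2 changes of 0.19 and 0.84.

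The 17β-hydroxysteroid dehydrogenases interconvert active and inactive sex steroids, and several also act on other lipids. HSD17B2, which oxidises estradiol and testosterone to their weaker ketones, had 124, 121 and 93.9 normalized counts in knockdown libraries and 472, 588 and 516 in scrambled libraries. The groups were far apart, with means of 113 ± 16.7 in knockdown and 525 ± 58.8 in scrambled libraries (log2 change -2.21, SE 0.14, adjusted p = 9.28e-08), so HSD17B2 was 4.63-fold lower in knockdown libraries on that scale. It had the smallest adjusted p of the lipid enzyme rows. Of its exon bases 12.8% lie opposite another annotated transcript.

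HSD17B11, a lipid droplet protein that oxidises androstane steroids, had 3767, 4135 and 3283 normalized counts in knockdown libraries and 2454, 2795 and 2874 in scrambled libraries. All knockdown libraries were higher (log2 change 0.46, SE 0.09, adjusted p = 0.00128). HSD17B12, which serves the elongation of very long chains and reduces estrone, had means of 1839.7 ± 184 in knockdown and 1754 ± 159.5 in scrambled libraries (95% interval -0.13 to 0.27). The other 5 tested rows, HSD17B1, HSD17B3, HSD17B6, HSD17B8 and HSD17B14, did not pass the test, with log2 changes from -0.54 to 0.07. HSD17B3 shares 97.8% of its exon bases with the annotated transcript AL160269.1 on the same strand.

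Levels of different genes were compared per kilobase (kb) of exon, for the 42 tested rows of genes with 1 RefSeq transcript. FADS1 was highest, with 2588 ± 122 normalized counts per kb in knockdown and 2406 ± 136 in scrambled libraries. HSD17B11 followed, with 1978 ± 227 in knockdown and 1437 ± 118 in scrambled libraries, and then DGAT1, with 1170.1 ± 72.4 in knockdown and 1055 ± 62.1 in scrambled libraries. These 3 did not overlap with the next in order in either group. Further down the order was less certain: of 41 pairs of neighbours, values overlapped in 29 pairs in knockdown and 31 in scrambled libraries. HSD17B2 was at rank 26 of 42 in knockdown and rank 12 in scrambled libraries, FADS3 at rank 16 in knockdown and rank 9 in scrambled libraries, and LPCAT1 at rank 21 in knockdown and rank 34 in scrambled libraries.

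**Figure D4:**
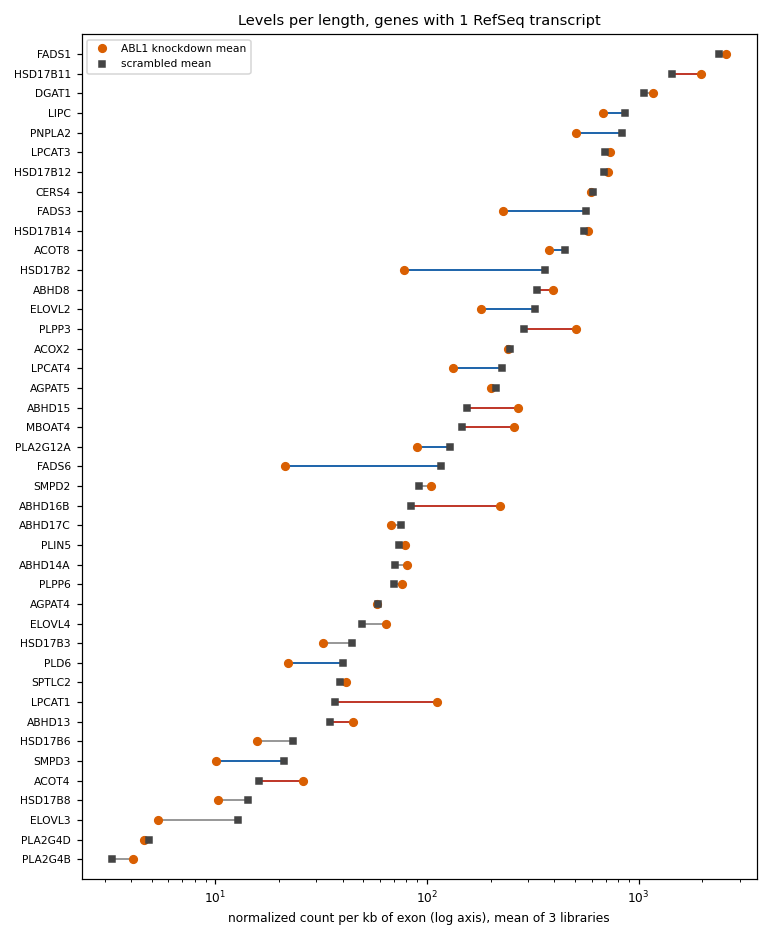
Mean normalized count per kb of exon (log axis) is shown for the 42 tested lipid enzyme rows of genes with 1 RefSeq transcript, ABL1 knockdown as orange circles and scrambled as grey squares, in the order of the scrambled level; a joining line is red for a rise, blue for a fall and grey where the test was not passed. FADS1, HSD17B11 and DGAT1 lead in both groups, and HSD17B2 and FADS6 show the widest gaps to the left.

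Rows with too few reads to test were 15: ACSM2A, ACOT6, ACOT11, ACOT12, AGPAT3, PNPLA6, PLA2G1B, ABHD1, ABHD17A, SMPDL3B, SPTLC1, a non-coding transcript of CERS5, the minor rows of PLPP5 and ABHD12, and the pseudogene HSD3BP4. They had 0 to 18 reads in any library. Among the rows found only by spelling, GPATCH2 rose with log2 changes of 0.73 for NM_018040 (adjusted p = 0.0144) and 0.51 for NM_001297754 (adjusted p = 0.0295), while GPATCH1 (-0.10) and GPATCH3 (0.03) did not pass the test. The pseudogene HSD17B7P2 rose as well (log2 change 0.52, adjusted p = 0.0228), with reads that its near-identical parent gene could share.

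Genes that work beside these enzymes were read from lists chosen with earlier results known, with each gene's most abundant tested transcript. Of all tested rows 24.5% rose and 27.4% fell. With equal totals 34.6% rose and 19.6% fell, and with quantile normalization 26.7% rose and 24.8% fell. The counts of these short lists are a description beside those shares and were not tested against them. Regulators had 1 rise and 3 falls among 7 tested. PPARGC1A, a coactivator of fatty acid oxidation genes, averaged 261 normalized counts in knockdown and 129 in scrambled libraries (log2 change 1.01). PRKAA2 (-0.43), INSIG2 (-0.38) and SCAP (-0.23), which act in energy sensing and in the control of sterol regulatory element-binding proteins, fell, and with equal totals none of these falls passed the threshold. For acyl chain transport and oxidation, 2 of 15 rose and 6 fell, while 5 rose and 5 fell with equal totals and 4 rose and 5 fell with quantile normalization. SLC25A20, the carnitine carrier of the mitochondrial membrane, averaged 1891 normalized counts in knockdown and 724 in scrambled libraries (log2 change 1.38, adjusted p = 4.27e-08). The liver fatty acid carrier FABP1 (log2 change -0.91) and the carnitine palmitoyltransferases on the list, CPT2 (-0.88) and CPT1A (-1.41), fell, and DECR1 rose (0.56).

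For fatty acid synthesis, 3 of 7 tested partners rose and 3 fell. ME1 (0.48), MLYCD (0.32) and ACACB (0.31) rose, and FASN (-0.34), HACD2 (-0.24) and HACD3 (-0.24) fell. With equal totals or quantile normalization no fall of this list passed the threshold. Partners in glycerolipids, droplets and lipoproteins had 3 rises and 6 falls among 12, but 5 rises and 2 falls among 11 with equal totals and 4 of each with quantile normalization. FITM2, which aids budding of droplets, rose (0.59), as did CEPT1 (1.67) and GPD1L (0.27), and TM6SF2, which helps to load lipid on lipoproteins, fell (-0.98), as did CDS2 (-0.45) and ETNK1 (-0.37), the last of which did not pass with equal totals (-0.20, adjusted p = 0.106). G0S2, the protein inhibitor of PNPLA2, was singled out after its values were seen: it had 9, 1 and 2 reads in knockdown libraries and 26, 7 and 21 in scrambled libraries, with overlap, and fell (log2 change -2.01, adjusted p = 0.0176), while with equal totals it lay below the limit for testing. Sphingolipid partners had 4 rises and 2 falls among 11. CERK, the kinase that makes ceramide 1-phosphate, averaged 556 normalized counts in knockdown and 2059.8 in scrambled libraries (log2 change -1.89, adjusted p = 9.64e-09), and GBA2 fell (-0.29), while SGPP1 (0.66), KDSR (0.39) and GLTP (0.35) rose.

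Markers of cell types moved between the groups too, and their part in the changes above was not tested. Their counts stand beside 24.5% of all tested rows that rose and 27.4% that fell, with the shares under other scalings as given above. The summed level of 12 hepatocyte markers was 466642 to 515286 normalized counts in knockdown and 556723 to 627805 in scrambled libraries, and of 11 tested 1 rose and 7 fell. The balance depended on the scaling, with 4 rises and 6 falls among 12 with equal totals and 3 rises and 4 falls with quantile normalization. Albumin averaged 63227 normalized counts in knockdown and 84502 in scrambled libraries (log2 change -0.42), a fall that, like those of TF and APOB, did not pass the threshold with quantile normalization. Of 6 fibroblast and stellate markers 4 rose and 1 fell (sums of 13259 to 14609 in knockdown and 8912 to 9908 in scrambled libraries). Of 6 biliary markers 1 rose and 4 fell (sums of 5816 to 6256 in knockdown and 8570 to 9789 in scrambled libraries). Of 4 endothelial markers 1 rose and 3 fell (sums of 125 to 147 in knockdown and 176 to 204 in scrambled libraries), and of 3 immune markers 1 rose and 2 fell (6544 to 7489 in knockdown and 5714 to 6331 in scrambled libraries, mostly LYZ). Adipocytes, the other cell type in which PNPLA2, ABHD5 and perilipins are prominent, were represented by LPL, with 1.13 to 6.19 normalized counts in knockdown and 7.85 to 19.7 in scrambled libraries. Both steroidogenic markers in the table rose: STAR, which delivers cholesterol to mitochondria, averaged 162 normalized counts in knockdown and 43.5 in scrambled libraries (adjusted p = 1.18e-04), and CYP11A1 averaged 16.6 in knockdown and 4.66 in scrambled libraries (log2 change 1.68). No marker of these lists that is in the table was at 0 in every library.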

How the data were processed

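RNA-seq of total RNA from 6 Huh7 libraries was analysed, 3 with an shRNA against ABL1 and 3 with a scrambled shRNA, grouped by their titles. The authors deposited a table of signal values, 1 per RefSeq transcript and library. HISAT2 2.0.4, HTSeq 0.6.1 and build hg38 are named in the submitters' processing notes, with no role or order. The annotation, strand setting and treatment of shared reads, not given in the sources used here, can affect overlapping genes. Of 35 called lipid enzyme rows with a transcript model, 12 shared at least 10% of their exon bases with another annotated gene on either strand. The values show that each deposited signal is a scaled square root of a whole number of reads plus 3/8. Squaring, dividing by the step of the library and subtracting 0.375 gave whole reads for 100% of rows within a tolerance of 0.05. Normalized counts are reads times the relative step of the library, which keeps the authors' scale.

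Rows averaging 10 or more normalized counts were fitted together in limma 3.58.1 (R 4.3.3; linear model with moderated variances that follow a mean-variance trend) on log2(normalized count + 1). Two-sided p-values were adjusted by Benjamini-Hochberg over the 8600 rows, and the threshold was 0.05. Log2 changes are knockdown minus scrambled and understate changes of low transcripts. Fold values come from the same scale. The fit was tested on simulated data. The members and lists were chosen with earlier results of these data known. Within each role, values per library are given for up to 2 largest rises and 2 largest falls among called rows, other called rows are named with their change, and genes of the partner lists are the 3 with the smallest p in each direction. Names, gene spans and promoters come from RefSeq tables of GRCh38.p14, which matched 94 of 96 member rows by identifier, and exon lengths and overlaps from GENCODE 29. Within a group, chi-square per degree of freedom between libraries was 5.55 to 9.79, so none was a duplicate. Alternatives changed the pseudocount, filter, scaling, variance model, threshold, unit (reads summed per gene), a replicate block and the libraries included.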

Additional observations from a re-analysis of the deposited data

How the results depend on the processing

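Over the 17 alternative settings 16 to 29 lipid enzyme rows rose and 11 to 15 fell, beside 21 and 15 as reported; the lowest count of rises, 16, came with an adjusted p threshold of 0.01. Scaling to equal totals moved the median log2 change of lipid enzyme rows to 0.27, and that of all tested rows to 0.18, and gave 29 rises and 11 falls. Quantile normalization gave 22 and 13, median of ratios 22 and 14, and voom 21 and 15. Among all tested rows 24.5% rose and 27.4% fell as reported, and 34.6% rose and 19.6% fell with equal totals. These shares were 26.7% and 24.8% with quantile normalization, and 24.9% and 27.0% with median of ratios. Counts of the other settings are given without such shares. Leaving out a single library gave 18 to 21 rises, 12 to 15 falls and medians from 0.0769 to 0.109. Of the 36 called rows 27 stayed past the threshold in the same direction under every alternative at which they were tested, and no called row changed direction. A single omitted library ended the call of ACOT4, ACOT8, ACADSB, ACAD8, PLPP5 NM_001102560, ABHD13, ABHD12 and ABHD8, and equal totals ended that of LIPC; the cause was not tested. The groups share replicate numbers, but deviations of same-numbered libraries correlated at only 0.0471, 0.0765 and 0.0768, so the numbers were not taken as pairs. With the number as a replicate block, 23 rows rose and 15 fell, and ELOVL4 and ABHD3 passed the threshold; not every library correlated best with its own number. The 15 untested rows had at most 18 reads in a library, too few to show moderate changes.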
